A study of Mus musculus with 6 samples.

Results

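The receptors for transforming growth factor-β (TGF-β) and bone morphogenetic proteins (BMPs) examined here are 10 genes: the type I receptors Tgfbr1, Acvrl1, Acvr1, Acvr1c and Bmpr1a, the type II receptors Tgfbr2, Acvr2a and Bmpr2, and the co-receptors Tgfbr3 and Eng. They were taken by gene name from a table of 55487 genes, of which 16565 were abundant enough to be tested, and all 10 receptor genes were among those tested. Of the 10, 9 passed the filter on low counts in both groups and Acvr1c passed it only in controls. RNA-seq was done on aortas of 3 control and 3 Prdm16 iSM KO mice, all male and on a C57BL/6 background, with the adventitial layer dissected away. Both groups carried the tamoxifen-inducible Myh11-CreERT2 transgene, which is on the Y chromosome and is active in smooth muscle cells. Controls had wild-type Prdm16 alleles and iSM KO mice had both alleles floxed around exon 9. Mice of both groups received tamoxifen from 8 weeks of age (1 mg per mouse per day for 10 days), followed by 2 weeks of washout, and tissue was taken 60 days later without any vascular injury. PRDM16 is a zinc finger transcription factor, best known for its role in brown fat.

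Ligands of the TGF-β family bind a complex of type II and type I receptors, which are serine/threonine kinases. The type II receptor phosphorylates the type I receptor, and the type I receptor then phosphorylates SMAD proteins. TGFBR1 (ALK5), ACVR1B (ALK4) and ACVR1C (ALK7) signal mainly through SMAD2 and SMAD3, whereas ACVRL1 (ALK1), ACVR1 (ALK2), BMPR1A (ALK3) and BMPR1B (ALK6) signal mainly through SMAD1, SMAD5 and SMAD9. In the vessel wall, TGFBR1 and TGFBR2 are needed for a normal smooth muscle layer, and human mutations in their genes cause aortic aneurysm syndromes. ACVRL1 and endoglin are best known in endothelial cells, where their loss causes hereditary haemorrhagic telangiectasia, and BMPR2 mutations cause heritable pulmonary arterial hypertension.

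Receptor genes can themselves be targets of SMADs, so the promoters of the called gene and of the TGF-β receptor pair are shown first. The stretches are from RefSeq (GRCm38.p6), written 5′ to 3′ on the strand of the gene, and end where the annotated transcripts begin. Capitals mark the SMAD box (CAGAC or its complement GTCTG) and the GC-rich SMAD element GGCGCC, both searched on both strands.
Acvr1c (chr2:58357896-58358008, minus strand, 113 bases): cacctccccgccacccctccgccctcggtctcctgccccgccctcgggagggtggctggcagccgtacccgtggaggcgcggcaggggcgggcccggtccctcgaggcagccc
Tgfbr2 (chr9:116175364-116175613, minus strand, 250 bases): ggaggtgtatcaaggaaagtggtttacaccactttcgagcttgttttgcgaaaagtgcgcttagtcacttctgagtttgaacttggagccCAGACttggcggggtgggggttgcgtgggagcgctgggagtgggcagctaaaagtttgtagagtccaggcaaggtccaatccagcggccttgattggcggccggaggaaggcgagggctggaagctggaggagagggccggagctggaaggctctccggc
Tgfbr1 (chr4:47352972-47353221, plus strand, 250 bases): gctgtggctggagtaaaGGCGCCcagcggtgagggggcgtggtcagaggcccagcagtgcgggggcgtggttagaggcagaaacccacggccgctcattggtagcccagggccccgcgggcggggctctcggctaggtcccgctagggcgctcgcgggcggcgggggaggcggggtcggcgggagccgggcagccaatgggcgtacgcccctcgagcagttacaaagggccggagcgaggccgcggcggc
The Acvr1c stretch held neither motif, the Tgfbr2 stretch held 1 SMAD box, and the Tgfbr1 stretch held 1 GGCGCC. RefSeq windows of 250 bases were found for 8 of the 10 genes and missing for Acvrl1 and Tgfbr3. With alternative starts of Acvr1c and Tgfbr1 these made 10 windows, of which 4 held CAGAC and 3 held GGCGCC, and no match of one motif overlapped the other in the stretches printed. Among 32851 promoter windows of the same length genome-wide, 42.2% held CAGAC and 9.59% held GGCGCC. A match is only a run of letters, not a measured binding site.

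Libraries held 24911609 to 40460467 estimated counts each, of which the 10 receptor genes made up 0.0929% to 0.111%. Values below are normalized counts (CPM, counts per 1000000 counts of the library, with the library size scaled by TMM factors), which compare one gene between libraries. Differences are log2 fold changes of iSM KO over control from edgeR's quasi-likelihood test, with the standard error (SE) or 95% confidence interval, and FDR is the Benjamini-Hochberg adjusted p-value over all 16565 genes tested. A gene with an FDR under 0.05 is called, and n = 3 per group throughout. Over all 16565 genes tested, 705 were called and higher and 547 were called and lower. Prdm16 itself fell from 195 ± 24.5 CPM (SD) in controls to 95.4 ± 16.5 CPM in iSM KO aortas (log2 fold change -1.03, FDR 0.00264), where reads from exons outside the deletion still count. Smooth muscle genes were abundant, with Myh11, the smooth muscle myosin heavy chain, at 7431 to 9235 CPM in the 6 libraries, and 2 of 10 smooth muscle markers rose (Myocd and Des) while none fell. Of the other marker lists, 9 of 12 tested adipocyte genes fell and 1 rose (Pparg), 1 of 12 endothelial genes rose (Flt1) and none fell, and 1 of 10 fibroblast genes fell (Clec3b) and none rose. Among tested brown adipocyte (4 genes), cardiomyocyte (6), pericyte (5), macrophage (9), erythrocyte (4), Schwann cell (4), skeletal muscle (3) and B cell (1) markers, the calls were Cidea and Notch3 (lower) and Ppargc1a and Ryr2 (higher), and no T cell marker was abundant enough to test. In bulk tissue, fewer cells of a type cannot be told apart from less RNA per cell.

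One of the 10 receptor genes, the type I receptor gene Acvr1c, differed between iSM KO and control aortas at an FDR under 0.05, and it was lower. Its log2 fold change of -2.0 also exceeded a 2-fold change. Over all genes tested, 7.56% had an FDR under 0.05, 3.30% had one and were lower, and 2.78% had one with a fold change over 2, so 1 of 10 is close to the background. At an unadjusted p under 0.05, 5 of the 10 genes were lower (Acvr1c, Tgfbr2, Bmpr1a, Acvrl1 and Acvr2a) and none was higher, where 11.0% of all genes were lower at that level. For 5 of the 10 genes the iSM KO libraries did not overlap the control libraries, against 27.9% of all genes. Of these, Acvr1c, Tgfbr2, Tgfbr1 and Bmpr1a (4 of 10) lay below the controls, against 13.0% of all genes, and Acvr1 lay above them. Acvr1c is in each of these counts of lower genes, but it entered the test only because its control counts passed the filter. Its direction therefore adds no support to them, to the count of 5 genes without overlap or to the median below. The 10 genes were also chosen with earlier results of these data known. Their counts are therefore a description beside the shares of all genes, not a test against them. The median log2 fold change was -0.18 for the 10 receptor genes and -0.01 for all genes tested. For the 9 genes that were not called, the 95% intervals ran at most from -0.72 to 0.47, so changes beyond 2-fold were outside the interval of each.

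**Figure D1:**
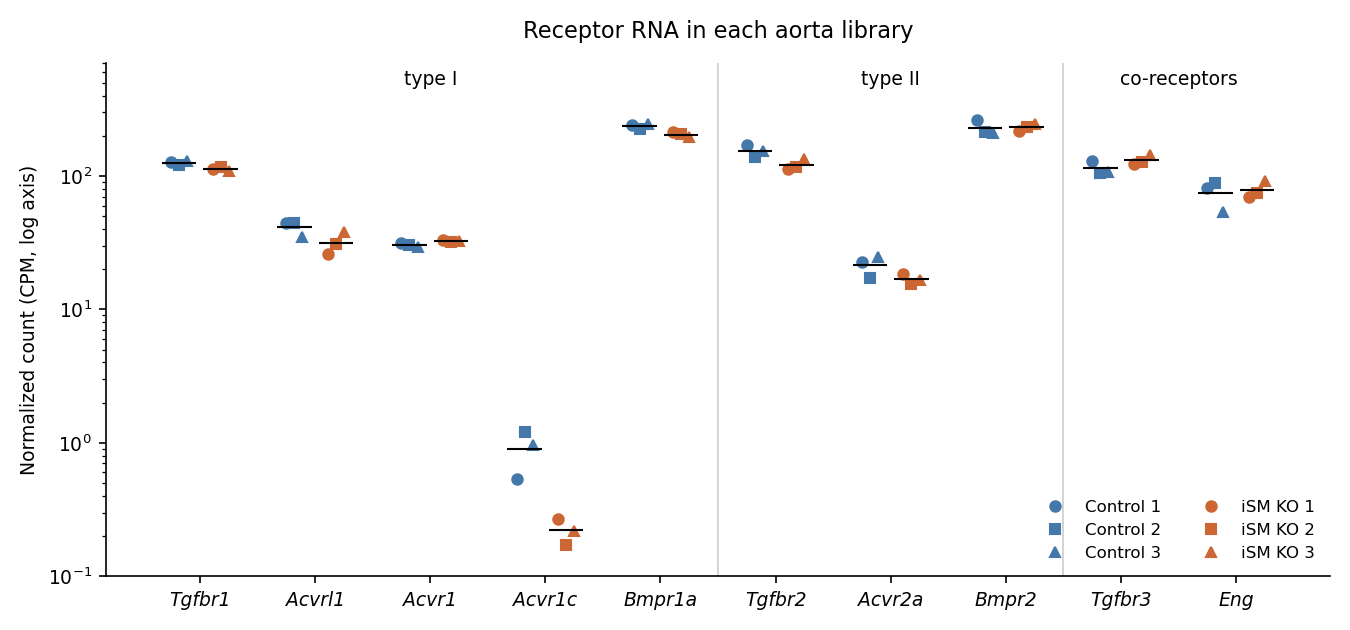
Normalized counts (CPM, log axis) of the 10 receptor genes in each of the 6 aorta libraries, controls in blue and iSM KO in orange, with a bar at the mean of each group of 3. Acvr1c lies far below the other 9 genes and shows the widest gap between groups, from 0.900 CPM on average in controls to 0.220 CPM in iSM KO.

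How abundant each receptor was in the aorta can be compared between genes only per length, here as CPM per kb of annotated exon. Bmpr1a, the main type I receptor for BMP2 and BMP4, had the highest level in controls, 37.3 ± 1.69 CPM per kb, above every other receptor gene in each of the 3 controls. Tgfbr1 (19.2), Tgfbr2 (18.9), Eng (18.4) and Tgfbr3 (17.4 CPM per kb) followed, and the control ranges of neighbours in this order overlapped. Bmpr2 (12.7), Acvrl1 (9.68) and Acvr1 (6.31 CPM per kb) came next, each above the next gene in every control. Acvr2a stood at 3.78 and Acvr1c at 0.0968 CPM per kb. In iSM KO aortas Bmpr1a was still the highest, at 32.2 ± 1.24 CPM per kb, and Tgfbr3 (20.1) and Eng (19.4) had the next means, before Tgfbr1 (17.4) and Tgfbr2 (14.8 CPM per kb). In all 6 libraries these 5 genes had the highest levels and Acvr1c the lowest, but several places depended on the length used. Per kb of the longest annotated transcript, Bmpr2 (16.7, 18.2 and 18.9) exceeded Tgfbr2 (14.0, 14.4 and 16.5 CPM per kb) in iSM KO 1 to 3, and it exceeded Eng in Control 3 (16.1 against 15.8 CPM per kb). By that length the iSM KO mean of Eng (23.0) exceeded that of Tgfbr3 (21.6), and Acvr1 (9.87) exceeded Acvrl1 (8.69 CPM per kb). In controls the mean of Eng (21.7) then exceeded that of Tgfbr2 (19.1 CPM per kb). Bmpr1a remained the highest and Acvr1c the lowest with either length.

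Among the type I receptors, Acvr1c (chr2:58267453-58357895, GENCODE M21 on GRCm38) encodes ALK7, a receptor for activin B and GDF3 that is known for its high level in fat cells. It was measured at 0.537, 1.20 and 0.964 CPM in controls 1 to 3 and at 0.270, 0.172 and 0.219 CPM in iSM KO 1 to 3. All 3 iSM KO libraries lay below all 3 controls, on a mean of 0.900 ± 0.335 CPM (SD) in controls and 0.220 ± 0.0490 CPM in iSM KO (log2 fold change -2.0, SE 0.41, 95% interval -2.93 to -1.08, FDR 0.0200). These values rest on few reads, 18, 46 and 23 counts in controls and 11, 6 and 8 in iSM KO, and the gene passed the filter on low counts only because all 3 controls exceeded 10. The call was lost without any 1 of 5 libraries: the FDR was 0.0528 without Control 2, 0.0575 without Control 3, 0.0558 without iSM KO 1, 0.0993 without iSM KO 2 and 0.0519 without iSM KO 3, at log2 fold changes of -2.18 to -1.72, and 0.0132 without Control 1.

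Most adipocyte markers fell together with Acvr1c. The 9 adipocyte genes that fell were Adipoq, Plin1, Cidec, Fabp4, Lpl, Cfd, Slc2a4, Pck1 and Lipe. Adiponectin (Adipoq), a hormone made by fat cells, was measured at 1.40, 11.1 and 4.61 CPM in controls 1 to 3 and at 0.319, 0.172 and 0.630 CPM in iSM KO 1 to 3. With 13, 6 and 23 counts in iSM KO 1 to 3, Adipoq, like Acvr1c, passed the filter only in controls. Its direction therefore adds no support to the count of 9. Control 1 was the lowest control for Acvr1c and for Adipoq, and Control 2 was the highest for both, whereas among iSM KO libraries Acvr1c was highest in iSM KO 1 and Adipoq in iSM KO 3. The summed level of the 14 adipocyte markers was 572 to 769 CPM in control and 510 to 600 CPM in iSM KO aortas, but 78.5% of this sum was Plin4, a lipid droplet gene that was not called (log2 fold change 0.08). Without Plin4 the other 13 summed to 94.1, 308 and 206 CPM in controls 1 to 3 and to 55.6, 54.1 and 61.1 CPM in iSM KO 1 to 3, without overlap. None of the 14 was at 0 in all libraries. Pparg, the regulator of fat cell formation, instead rose with a log2 fold change of 1.19 (FDR 0.00354). The part of fat cells in the Acvr1c difference was not tested. Over the 6 libraries, the genes whose log2 CPM followed Acvr1c most closely were Emb (Pearson r = 0.995), Mgat4a (0.993) and Col18a1 (0.990), which share with it the split between groups, and 103 genes had r over 0.95.

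Tgfbr1 (chr4:47353222-47414931) encodes ALK5, the type I receptor that TGF-β uses in most cells. It was measured at 128, 120 and 129 CPM in controls 1 to 3 and at 113, 117 and 110 CPM in iSM KO 1 to 3. The groups did not overlap, but the distance was small (log2 fold change -0.15, 95% interval -0.31 to 0.01, FDR 0.266). Bmpr1a (chr14:34410734-34503341), the most abundant of the receptor genes per length, was measured at 241, 225 and 245 CPM in controls and at 212, 205 and 196 CPM in iSM KO. Every iSM KO library was again below every control, and the log2 fold change was -0.21 (95% interval -0.39 to -0.04, FDR 0.146). Its exons share 290 bp with the antisense gene Gm17110, which averaged 1.75 CPM in control and 1.20 CPM in iSM KO aortas.

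Acvr1 (chr2:58388644-58567157), the ALK2 receptor for BMP6 and BMP7, was the only receptor gene of the 10 whose iSM KO libraries all lay above the controls. It was measured at 31.4, 30.6 and 29.4 CPM in controls and at 33.1, 31.7 and 32.7 CPM in iSM KO, with a log2 fold change of 0.09 (95% interval -0.07 to 0.26, FDR 0.500), or 0.06 without Control 3. Acvr1 and Acvr1c are neighbours on chromosome 2, on the same strand and 30748 bp apart, and their log2 fold changes had opposite signs.

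Acvrl1 (chr15:101128522-101145336) encodes ALK1, the receptor for BMP9 and BMP10. It was measured at 44.8, 44.4 and 34.7 CPM in controls 1 to 3 and at 25.9, 31.1 and 37.9 CPM in iSM KO 1 to 3. The groups overlapped, since iSM KO 3 lay above Control 3, and the log2 fold change was -0.39 (95% interval -0.72 to -0.05, unadjusted p from edgeR 0.0288, FDR 0.168). Without iSM KO 1 it was -0.26 and without iSM KO 3 it was -0.54.

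**Figure D2:**
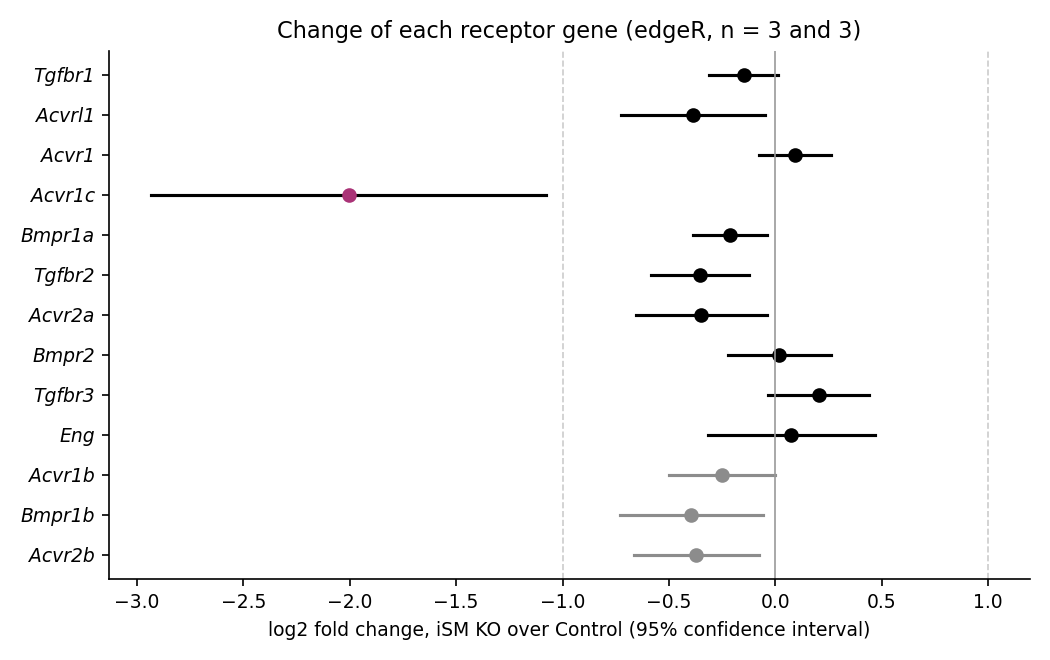
Log2 fold change of iSM KO over control from edgeR (points) with 95% confidence intervals (lines) for the 10 receptor genes (black) and 3 further receptor genes of the family (grey), with the FDR under 0.05 marked by a purple point. Dashed lines mark a 2-fold change in either direction. The Acvr1c interval, -2.93 to -1.08, lies wholly beyond the 2-fold line, and the intervals of the other 9 receptor genes lie inside both lines.

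Whether the mix of type I receptors differed was asked from the share of each in the summed CPM per kb of the 7 type I receptor genes. Bmpr1a made up 45.1 ± 1.20% of it in controls and 44.9 ± 1.85% in iSM KO (exact permutation p = 1, two-sided), and Tgfbr1 made up 23.3 ± 0.507% and 24.2 ± 0.670% (exact permutation p = 0.2). Acvrl1 accounted for 11.7 ± 1.69% and 10.3 ± 1.96% (exact permutation p = 0.5). The share of Acvr1 was 7.59%, 7.96% and 7.36% in controls 1 to 3 and 9.61%, 9.08% and 9.47% in iSM KO 1 to 3. These groups did not overlap (exact permutation p = 0.1, the smallest that 3 against 3 allows, and 0.4 after Benjamini-Hochberg adjustment over 8 tests). A share also depends on the other genes in the sum. The log2 fold change of Acvr1 itself was 0.09 (edgeR FDR 0.500), and those of the other type I receptor genes were negative. The difference in the Acvr1 share was 1.75 percentage points, or 2.21 with the longest annotated transcript as length. The Acvr1c share was 0.118 ± 0.0475% in controls and 0.0331 ± 0.00759% in iSM KO, also without overlap (exact permutation p = 0.1, adjusted 0.4). Since Acvr1c passed the filter on low counts only in controls, the direction of its share is no further support. Acvr1b held 6.41 ± 0.624% and 6.20 ± 0.568%, and Bmpr1b 5.69 ± 1.09% and 4.99 ± 0.216%. In these aortas, dissected free of the adventitial layer, the log2 ratio of Tgfbr1 (ALK5) to Acvrl1 (ALK1) RNA was 1.0 ± 0.246 in controls and 1.24 ± 0.303 in iSM KO (exact permutation p = 0.2). That difference of 0.24 was 0.11 without iSM KO 1, 0.15 without Control 2, 0.38 without Control 3 and 0.41 without iSM KO 3, and the difference in the Acvrl1 share was -0.485, -0.716, -2.34 and -2.43 percentage points in the same order, against -1.39 with all libraries. With 3 libraries per group, no p below 0.1 was possible in these tests. Within each group the ratio was highest in Control 3 (1.28) and iSM KO 1 (1.52). These libraries also had the lowest endothelial marker sums of their groups (564 and 332 CPM). The ratio mixes RNA of all cell types, and the part of endothelial RNA in it was not tested.

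**Figure D3:**
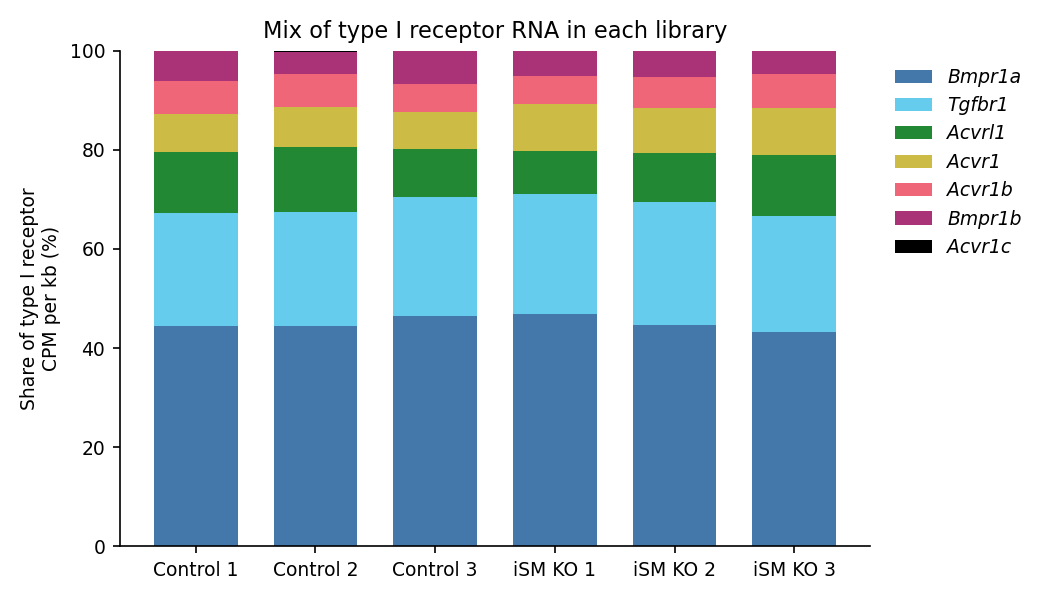
Stacked shares (%) of the 7 type I receptor genes in the summed CPM per kb of each library, 3 controls on the left and 3 iSM KO on the right. Bmpr1a takes 43.2% to 46.8% in every library, the Acvr1 band is wider in the 3 iSM KO libraries, and Acvr1c is too small to see.

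Of the type II receptors, Tgfbr2 (chr9:116084293-116175360), which binds TGF-β directly, showed the clearest separation. It was measured at 171, 139 and 153 CPM in controls 1 to 3 and at 113, 116 and 133 CPM in iSM KO 1 to 3. Every iSM KO library was below every control, with means of 154 ± 16.4 and 121 ± 11.0 CPM (SD). The log2 fold change was -0.35 (SE 0.10, 95% interval -0.59 to -0.12, unadjusted p from edgeR 0.00721), which corresponds to a level 21.7% lower, and the FDR of 0.0743 missed the threshold. It passed in 3 of 12 alternatives, namely with DESeq2 (FDR 0.0266), without a filter on low counts (FDR 0.0386) and without Control 2 (FDR 0.0393), and over all 12 the FDR reached 0.277 (without iSM KO 2) and the log2 fold change ran from -0.43 to -0.27. Stretches of at most 171 bp in Tgfbr2 transcripts matched transcripts of 28 other genes at 95% identity or more, and how such reads were assigned was not stated.

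Fibroblast markers stood beside Tgfbr2 as follows. Clec3b was the only one of 10 that was called (log2 fold change -1.56, FDR 0.0349), 9 of the 10 had a negative log2 fold change, and the median was -0.68. Their summed level was 723 to 886 CPM in control and 777 to 830 CPM in iSM KO aortas, of which 69.3% was the collagen gene Col15a1, the only one with a positive value (log2 fold change 0.36). Without Col15a1 the other 9 summed to 418, 197 and 304 CPM in controls 1 to 3 and to 152, 172 and 229 CPM in iSM KO 1 to 3, where the groups overlapped. Their part in the Tgfbr2 values was not tested.

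Acvr2a (chr2:48814109-48903269), a type II receptor for activins and BMPs, was measured at 22.5, 17.3 and 24.6 CPM in controls and at 18.4, 15.6 and 16.6 CPM in iSM KO. The groups overlapped through Control 2, and the log2 fold change was -0.35 (95% interval -0.66 to -0.04, unadjusted p from edgeR 0.0314, FDR 0.176). It passed in 1 of 12 alternatives, without Control 2 (FDR 0.0344), and over all 12 the FDR reached 0.428 (without iSM KO 2). Its exons share 446 bp with the protein-coding gene Orc4 on the opposite strand, which averaged 17.5 CPM in control and 14.2 CPM in iSM KO aortas, and whether counting used strand was not stated. Bmpr2 (chr1:59763400-59879014), the type II receptor for BMPs, was measured at 264, 213 and 208 CPM in controls and at 216, 235 and 244 CPM in iSM KO. Here the groups overlapped fully within the control range, and the log2 fold change was 0.02 (95% interval -0.22 to 0.26, FDR 0.937).

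The co-receptors hand ligands to the signalling receptors without a kinase of their own. Tgfbr3 (chr5:107106570-107289629) encodes betaglycan, which presents TGF-β2 to TGFBR2, and it was measured at 130, 105 and 106 CPM in controls and at 123, 128 and 143 CPM in iSM KO. Control 1 lay within the iSM KO range, and the log2 fold change was 0.20 (95% interval -0.03 to 0.44, FDR 0.296), or 0.32 without Control 1. Its exons share 306 bp with the overlapping gene Gm43422, which averaged 1.61 and 1.54 CPM. Eng (chr2:32646595-32682669) encodes endoglin, the co-receptor that works with ALK1, and it was measured at 81.0, 88.1 and 54.1 CPM in controls 1 to 3 and at 70.1, 74.2 and 91.3 CPM in iSM KO 1 to 3. The spread within groups exceeded the difference between them (log2 fold change 0.08, 95% interval -0.32 to 0.47, FDR 0.837). The sign of Eng turned without Control 3 (-0.12) or without iSM KO 3 (-0.05).

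Endothelial markers varied widely between libraries of 1 group. The 12 endothelial genes summed to 959, 1131 and 564 CPM in controls 1 to 3 and to 332, 550 and 887 CPM in iSM KO 1 to 3. Control 3 was the lowest control for this sum, for Acvrl1 and for Eng, and iSM KO 1 was the lowest and iSM KO 3 the highest iSM KO library for all 3 measures. The highest control was Control 2 for the sum and for Eng, but Control 1 for Acvrl1 (44.8 against 44.4 CPM in Control 2). Pecam1, a junction protein of endothelial cells, had a log2 fold change of -0.61 (FDR 0.368), and 11 of the 12 markers had a negative value, with a median of -0.66. Flt1, a VEGF receptor, was the exception and rose (log2 fold change 0.61, FDR 0.0175). Beside these markers, the log2 fold change was -0.39 for Acvrl1 and 0.08 for Eng. The part of endothelial RNA in the Acvrl1 and Eng values was not tested.

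**Figure D4:**
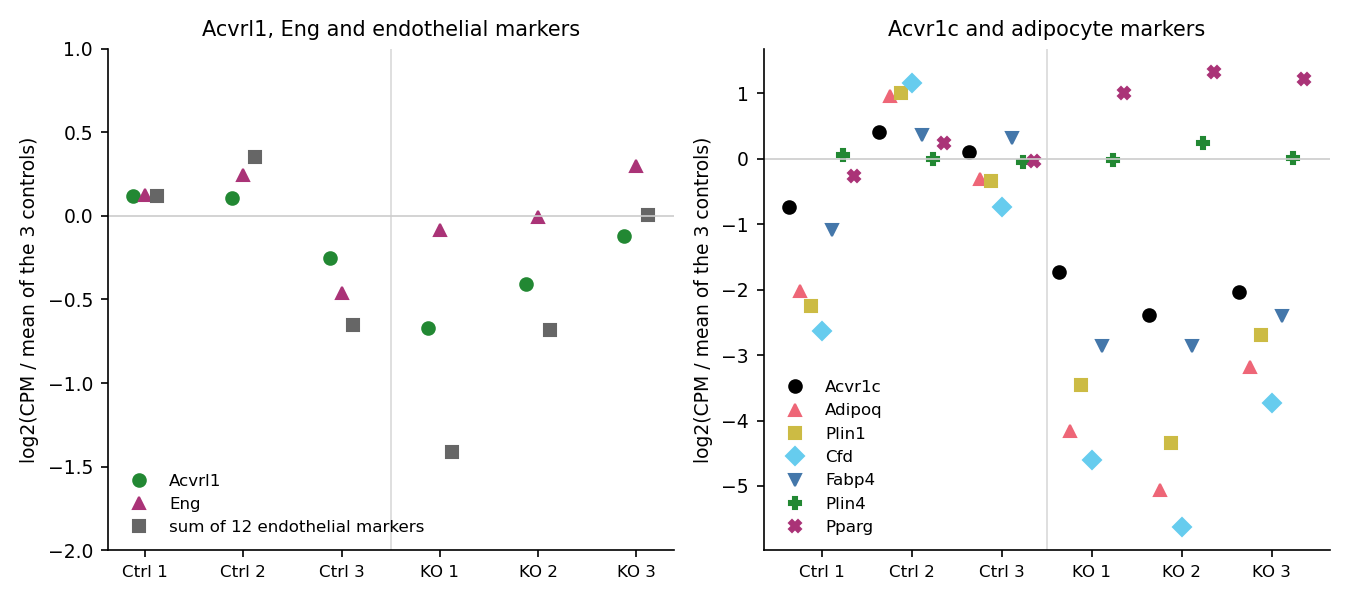
Level in each library relative to the mean of the 3 controls, as log2, for Acvrl1, Eng and the sum of 12 endothelial markers (left) and for Acvr1c and 6 of the 14 adipocyte markers (right). Control 3 and iSM KO 1 are low in their group for all series on the left, and on the right Acvr1c, Adipoq, Plin1, Cfd and Fabp4 are lower in each iSM KO library than in each control, while Plin4 overlaps and Pparg is higher. Acvr1c and Adipoq passed the filter on low counts only in controls.

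None of the other receptors of the family, which complete the set, was called. Acvr1b (ALK4), the activin type I receptor, averaged 23.4 ± 2.37 CPM in control and 19.7 ± 1.86 CPM in iSM KO aortas (log2 fold change -0.25, unadjusted p from edgeR 0.0487, FDR 0.223). Bmpr1b (ALK6) averaged 28.1 ± 6.03 and 21.4 ± 1.02 CPM (log2 fold change -0.39, unadjusted p from edgeR 0.0268, FDR 0.162). Acvr2b, the second activin type II receptor, averaged 6.40 ± 0.268 and 4.95 ± 0.291 CPM without overlap of the groups (log2 fold change -0.37, unadjusted p from edgeR 0.0190, FDR 0.134). Amhr2, the receptor for anti-Müllerian hormone, had 0 to 5 counts per library and was not tested.

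Around the receptors, the calls were in genes for ligands, their antagonists and accessory proteins. Among all 16565 genes tested, 7.56% were called, 705 of them higher and 547 lower. The pathway lists here and below were not tested against these shares, and most held only 1 or 2 calls in a direction. They were chosen with earlier results of these data known. Of 15 tested ligand genes 2 rose and none fell: Tgfb2, the ligand that depends on betaglycan for high-affinity binding, rose from 57.5 ± 11.2 to 118 ± 9.20 CPM (log2 fold change 1.04, SE 0.14, FDR 0.00260), and Inhbb, the activin B subunit, from 6.34 ± 1.96 to 11.7 ± 2.23 CPM (log2 fold change 0.88, FDR 0.0444). Of 13 tested antagonist genes 6 rose and none fell. Among these calls were the BMP antagonist genes Chrdl1 (log2 fold change 3.50), Grem1 (1.56) and Nbl1 (0.57) and the activin antagonist genes Fst (3.34) and Fstl3 (0.58). Chrdl1 went from 20.9 ± 4.24 to 237 ± 42.1 CPM, the largest fitted change in the pathway lists.

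Among the 7 tested co-receptor and pseudoreceptor genes, Nrp2 rose from 9.88 ± 1.52 to 23.9 ± 3.66 CPM (log2 fold change 1.28, FDR 0.00146) and none fell. Bambi, the pseudoreceptor that blocks type I receptors, averaged 17.2 ± 3.82 and 24.8 ± 0.693 CPM without overlap and was not called (log2 fold change 0.53, FDR 0.0647). Of 19 genes that act on receptor turnover, Pmepa1 (log2 fold change 0.52), which promotes degradation of TGF-β receptors and holds back SMAD signalling, and the membrane protease gene Mmp14 (0.50) rose and none fell. The ubiquitin ligase genes Smurf1 and Smurf2, whose products mark type I receptors for degradation, had log2 fold changes of -0.09 and 0.15 and were not called.

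Downstream of the receptors, 1 of 8 SMAD genes was called. Smad1, which carries BMP signals, rose from 25.9 ± 1.80 to 35.9 ± 3.50 CPM (log2 fold change 0.47, FDR 0.0218). Of 12 tested target genes of BMP and ALK1 signalling 2 fell and none rose: the differentiation inhibitor genes Id1, from 84.1 ± 26.4 to 41.1 ± 11.4 CPM (log2 fold change -1.03, FDR 0.0401), and Id4, from 50.6 ± 7.58 to 29.4 ± 2.75 CPM (log2 fold change -0.78, FDR 0.00560). Of 16 target genes of TGF-β signalling 3 rose, namely Ltbp2 (log2 fold change 0.84), Tgif1 (0.69) and Pmepa1 (0.52), and 1 fell, the collagen gene Col3a1 (-1.13). Ccn2, another TGF-β target, had a log2 fold change of 0.82 (FDR 0.0598) and was not called.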

How the data were processed

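Aortas of 3 control and 3 Prdm16 iSM KO male mice were profiled by RNA-seq after depletion of ribosomal RNA. Per the study's methods and the submitters' processing notes, the authors mapped and quantified paired-end reads against Ensembl release 101 (mm10) with DRAGEN. The deposited table holds estimated counts, not normalized and not filtered. Strand use and the sharing of reads between genes were not given in the sources used here.

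After rounding, a gene was tested if its count exceeded 10 in every library of either group, which is the study's own filter. Groups came from the sample labels. The main test was the quasi-likelihood test of edgeR 4.0.16 (R 4.3.3) on TMM-scaled counts, with group as the only term and p-values adjusted by Benjamini-Hochberg over 16565 genes. Each group was 3 mice with 1 library each. Alternatives were DESeq2 1.42.0, limma-voom (limma 3.58.1), DESeq2 size factors, other count filters, a replicate block and leaving out each library. Depth was 24911609 to 40460467 counts per library, of which 22.8% to 28.1% fell on 7S RNA genes. Lengths and positions came from GENCODE M21, and shared stretches of transcripts from blastn 2.17.0 (95% identity or more over at least 100 bp). Exact permutation tests went through every split of the libraries into groups of 3, in Python 3.11.15. The fit was tested on simulated data. Levels per longest transcript and marker sums without the most abundant gene were added after seeing the data.

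The 10 receptor genes, the pathway lists and the marker lists were chosen with earlier results of these data known. Named are all 10 receptor genes, the other receptors, Prdm16, Tgfb2, the called genes of each list (apart from an antagonist gene that is not reported here) and the 3 genes most like each called receptor gene. Adipoq, Plin4, Col15a1, Pecam1, Myh11, Bambi, Smurf1, Smurf2 and Ccn2 were named outside that rule after their values were seen.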

Additional observations from a re-analysis of the deposited data

How the results depend on the processing

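The number of receptor genes with an FDR under 0.05, 1 in the analysis reported, was 2 with DESeq2 and 2 without a filter on low counts (Tgfbr2 and Acvr1c in both), and 0 to 2 when 1 library was left out. It stayed 1 with limma-voom, with DESeq2 size factors and with filterByExpr. With a fold change over 2 required, the count was 1 in each of these except 0 to 1 when a library was left out. With the replicate number as a block it was 0 by both thresholds, where Acvr1c had a log2 fold change of -1.95 and an FDR of 0.0661, and 772 rather than 1252 of all genes were called. Same-numbered control and iSM KO libraries did not deviate together (correlations of -0.13, -0.05 and -0.11). With 3 libraries per group this cannot exclude that the numbers pair the samples, and the sample labels state no pairing. When 1 library was left out, the log2 fold change ranged from -0.049 to 0.14 for Bmpr2 and from -0.12 to 0.21 for Eng, changing sign, and the difference in the Bmpr1a share ranged from -1.23 to 0.60 percentage points around -0.26. The sign of the other 8 receptor genes did not change under the alternatives run. The median over the 10 genes ranged from -0.22 to -0.15. The causes were not tested. Low counts limit Acvr1c, and 3 libraries per group limit every value.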
